A study of Ictidomys tridecemlineatus with 15 samples.

Results

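The transcription of 8 genes of hepatic glucose metabolism was followed by global run-on sequencing (GRO-seq) in the liver of the 13-lined ground squirrel: Pck1, G6pc, Fbp1 and Pc of gluconeogenesis, Pklr of glycolysis, Gys2 and Pygl of glycogen metabolism, and the transcriptional coactivator Ppargc1a. They were chosen by symbol, with earlier results of these data known. A unit of the count table belonged to them where one of the gene names in its identifier matched, ignoring case. All 8 matched a unit, so that they occupied 8 of 6324 units. Pck1, G6pc, Ppargc1a, Gys2 and Pygl each had a unit of their own, whereas the other 3 shared a unit with overlapping genes, and the reads of such a merged unit cannot be divided among its genes. Counts of genes below include these merged units.

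GRO-seq extends and labels, in isolated nuclei, the RNA chains that polymerases were making at the time of collection, so a value here reflects polymerases at work on a gene and not an amount of mRNA or enzyme. The labels described livers of laboratory-housed females without any genetic or drug treatment, 1 animal per library, staged by body temperature and time. SA animals were taken in the homeothermic period before hibernation, IBA animals between torpor bouts after arousal, Ent animals while entering torpor, and ET and LT animals early and late in torpor. SA, IBA, Ent and ET had 3 libraries each, and LT had 2 because its replicate 2 had no values among the deposited counts. The study states that it removed an LT library of poor quality from its analyses. SA and IBA are called warm below, and ET and LT torpid. Total counts ranged from 3713883 to 8884763 per library, and levels are given as CPM, the counts of a unit scaled to a common library size after normalization by the trimmed mean of M-values (TMM). Such values are shares of a library, so they do not show a change in the total transcription of a state. The study states that scaling by library size hides such changes. Rises and falls below are therefore changes of share, also under the other scalings.

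The liver keeps blood glucose steady in a fasting animal by releasing it from glycogen and by making it anew from lactate, amino acids and glycerol. Gluconeogenesis reverses glycolysis through enzymes of its own at the irreversible steps: pyruvate carboxylase (Pc) and phosphoenolpyruvate carboxykinase (Pck1) bypass pyruvate kinase (Pklr), fructose-1,6-bisphosphatase (Fbp1) bypasses phosphofructokinase, and glucose-6-phosphatase (G6pc) frees the sugar for export. Glycogen synthase (Gys2) and glycogen phosphorylase (Pygl) build and degrade the store, and Ppargc1a, which encodes PGC-1alpha, coactivates gluconeogenic genes during fasting; a hibernating squirrel does not eat between its bouts of torpor.

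The units lay on separate scaffolds of the HiC_Itri_2 genome except for Pck1 and Pygl, which were both on the minus strand of Itri5. Pck1 spanned 182936327 to 182944113, a length of 7787 nt, and Pygl 59446182 to 59498637, a length of 52456 nt. G6pc covered 22965 nt of the minus strand of Itri7, from 19445810 to 19468774, and the nearest unit upstream of it on that strand, AOC3_gene5611, ended 13.9 kb away. Gys2 covered 53075 nt of the plus strand of Itri4, from 87333798 to 87386872. Ppargc1a was the longest, with 623891 nt on the plus strand of Itri14, from 51180063 to 51803953. The nearest unit upstream of Ppargc1a on that strand, Dhx15, ended 23.8 kb away. Fbp1 shared the unit Fbp2:Fbp1 on the minus strand of Itri13, from 4293636 to 4352835, with its muscle paralog Fbp2. Pc formed a unit with HSP90AA1_gene15992 and LOC110598927 on the plus strand of Itri3, from 6236026 to 6371581. Pklr formed a unit with G5522 on the minus strand of Itri11, from 25732918 to 25768587, with the unit Ash1l only 4.12 kb upstream on the same strand. The study reports that transcription in torpor often ran past the usual ends of genes, also into neighbouring ones. Whether such reads entered these units, or those of the wider pathway below, was not tested.

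Transcription per unit length differed by orders of magnitude among these genes. Averaged over the 14 libraries, Pck1 had 129 CPM per kb, the rank of 3 among all 6324 units, and G6pc had 36.4 CPM per kb, the rank of 39. The Fbp2:Fbp1 unit followed with 13.2 CPM per kb and Pygl with 10.7. The Pklr unit had 4.84, the Pc unit 4.20 and Gys2 4.10 CPM per kb. Ppargc1a had 1.11 CPM per kb, below most units, although its length gave it 693 CPM in all.

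The genes that carry the final and the committed steps of gluconeogenesis had far lower levels in torpor. Pck1, which makes phosphoenolpyruvate from oxaloacetate, was measured at 1124, 584 and 1414 CPM in SA replicates 1 to 3, at 1081, 2053 and 1482 CPM in IBA and at 2071, 1646 and 1432 CPM in Ent. In ET its values were 398, 104 and 288 CPM, and in LT 174 and 173 CPM. Every torpid library was therefore below every warm library and every Ent library. The mean of the torpid states was 5.92-fold below that of the warm states, a log2 difference of -2.57 ± 0.35 (SE) with an adjusted p of 3.61e-05 (edgeR's quasi-likelihood test, Benjamini-Hochberg adjustment over all units). In bulk liver, fewer cells of a type and less nascent RNA per cell cannot be told apart.

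G6pc, the enzyme that releases free glucose, was also lower in torpor. Its values were 2041, 371 and 1317 CPM in SA, 1719, 1319 and 1508 CPM in IBA and 957, 611 and 1068 CPM in Ent. They were 162, 158 and 216 CPM in ET and 149.8 and 96.6 CPM in LT. No torpid library reached the lowest warm library, which was SA replicate 2. Torpid against warm, G6pc was lower by a log2 difference of -3.21 ± 0.38 (SE), which is 9.25-fold (adjusted p = 1.14e-05, edgeR).

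The Fbp2:Fbp1 unit, which holds the gene for the hepatic bisphosphatase, was lower in torpor by a smaller factor. It had 1310.4, 582 and 933 CPM in SA, 1086, 1313 and 1049 CPM in IBA, 733, 684 and 537 CPM in Ent, 818, 456 and 495 CPM in ET and 454 and 481 CPM in LT. The torpid and warm ranges overlapped only because ET replicate 1 was above SA replicate 2. The torpid mean was nevertheless 1.98-fold below the warm mean, with a log2 difference of -0.99 ± 0.21 (SE) and an adjusted p of 0.00137 (edgeR).

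The unit of Pc, which carboxylates pyruvate in mitochondria and so opens the pathway, did not show this difference. Its libraries measured 482, 499 and 444 CPM in SA, 462, 748 and 511 CPM in IBA, 622, 539.5 and 389 CPM in Ent, 1089, 625 and 530.3 CPM in ET and 498 and 528 CPM in LT. The torpid and warm libraries overlapped, with the highest value in ET replicate 1. Torpid against warm the log2 difference was 0.25 ± 0.20 (SE), with an adjusted p of 0.287 in edgeR.

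The unit of Pklr, the liver and red cell pyruvate kinase and so the enzyme opposed to Pc and Pck1, was also lower in torpor. It had 298, 124 and 406 CPM in SA, 188, 249 and 247 CPM in IBA, 162, 154 and 111 CPM in Ent, 102, 90.5 and 75.2 CPM in ET and 99.8 and 108 CPM in LT. The torpid libraries all lay below the warm ones, and SA replicate 2 was the warm library closest to them. The log2 difference was -1.38 ± 0.25 (SE), or 2.61-fold, with an adjusted p of 0.000330 (edgeR).

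Of the 8 genes, Gys2 had the largest difference. This gene for liver glycogen synthase was at 577, 269.8 and 569.9 CPM in SA, at 497, 306 and 259 CPM in IBA and at 129, 126 and 146 CPM in Ent. It was at 42.6, 28.1 and 34.0 CPM in ET and at 32.7 and 32 CPM in LT. Its levels thus formed 3 ranges without overlap, the warm states above Ent and Ent above the torpid states. The torpid mean was 12.2-fold below the warm mean, with a log2 difference of -3.60 ± 0.25 (SE) and an adjusted p of 3.03e-07 (edgeR).

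Pygl, which releases glucose units from glycogen, had a smaller difference than Gys2, and the gap between them was not tested. It measured 903, 295 and 777 CPM in SA, 911, 616 and 732 CPM in IBA, 601, 526 and 555 CPM in Ent, 307, 433 and 387 CPM in ET and 454 and 361 CPM in LT. SA replicate 2 was below every torpid library, and every other warm library was above all of them. The log2 difference between torpid and warm means was -0.85 ± 0.24 (SE), or 1.80-fold, with an adjusted p of 0.00759 (edgeR).

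Ppargc1a, although a coactivator of Pck1 and G6pc, did not pass the test. Its values were 662, 760.3 and 451 CPM in SA, 556, 566 and 556 CPM in IBA, 733, 693 and 833 CPM in Ent, 1156, 456 and 763 CPM in ET and 880.4 and 633 CPM in LT. The 3 IBA libraries were nearly equal, whereas the ET libraries spanned the lowest and the highest values of torpor. Torpid against warm its log2 difference was 0.39 ± 0.21 (SE), with an adjusted p of 0.122 in edgeR. Without ET replicate 2, the lowest of the torpid libraries, it was 0.53, and the adjusted p was 0.0167.

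**Figure D1:**
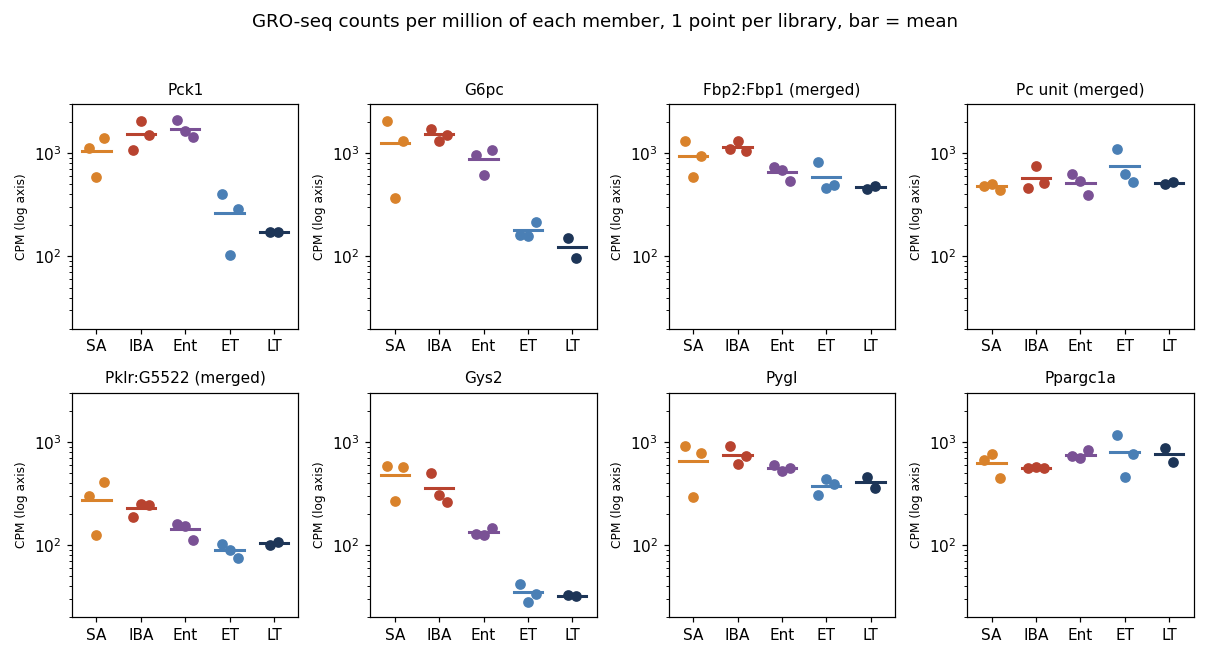
Levels in CPM (log axis) of the 8 genes in each of the 14 GRO-seq libraries, with 1 point per library and a bar at the mean of each state (SA, IBA, Ent and ET with 3 libraries, LT with 2). For Pck1, G6pc, the Pklr unit and Gys2, all 5 torpid points lie below all 6 warm points, whereas for the Pc unit and Ppargc1a the torpid and warm points overlap.

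In all, 6 of the 8 genes were lower and 0 were higher in torpid than in warm livers at an adjusted p of 0.05 in edgeR, with Fbp1 and Pklr counted by their merged units. Of all 6324 units, 64.5% passed this test, 33.7% lower and 30.8% higher, so that passing it was common. DESeq2 and limma-voom also called 6 of the 8. The median log2 difference of the 8 genes, which were chosen with earlier results known, was -1.18, against -0.04 over all units. The torpid libraries lay entirely below the warm ones for Pck1, G6pc, the Pklr unit and Gys2, as they did for 19.5% of all units. With library sizes set to the uniquely mapped reads, the median of all units moved up by 0.23 on the log2 scale, and higher units made up 63.4% of those called instead of 47.7%. The same 6 genes were then lower, with log2 differences from -0.62 for Pygl to -3.38 for Gys2, and the Pc unit (0.47, adjusted p = 0.0389) and Ppargc1a (0.61, adjusted p = 0.0173) were called higher in edgeR.

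Tested across the 5 states together at the stricter adjusted p of 0.001, 3 of the 8 genes passed, where 25.5% of all units did. These were Gys2 (adjusted p = 4.94e-06), G6pc (0.000198) and Pck1 (0.000265) in edgeR. The Pklr unit had 0.00312 and the Fbp2:Fbp1 unit 0.0118, and Pygl had 0.0625, so that these did not pass. Leaving out LT replicate 3 left only Gys2, since the adjusted p of Pck1 became 0.00159 and that of G6pc 0.00114. Pck1 also missed the threshold without LT replicate 1, at 0.00165, and without ET replicate 3, at 0.00103.

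Markers of hepatocytes moved in the same direction. Of 10 listed hepatocyte genes, 6 had a unit of their own and 5 of these were lower in torpid than in warm livers in edgeR, with a median log2 difference of -1.55 over the 6. Their summed level was 8725 to 20159 CPM in warm, 7122 to 8184 CPM in Ent and 3688 to 6987 CPM in torpid libraries, and its part in the results above was not tested. The exception was Apob, with a log2 difference of -0.23 and an adjusted p of 0.218. Of 39 listed markers of other liver and blood cells, 4 had a unit of their own: the summed endothelial genes Stab1, Pecam1 and Kdr were at 186 to 241 CPM in warm and 124 to 203 CPM in torpid libraries, and Sox9 of bile duct cells at 16.5 to 41.0 CPM in warm and 7.07 to 18.1 CPM in torpid libraries. The endothelial genes did not move together. Pecam1 (log2 difference -0.68, adjusted p = 0.00909) and Kdr (-0.86, 0.000943) were lower in torpor in edgeR, whereas Stab1 had 0.39 and was not called (0.0668). Macrophage, stellate and blood cell markers had no unit of their own.

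Between the warm states, SA and IBA, none of the 8 genes passed the test: 0 did in edgeR, in DESeq2 and in limma-voom, and 0 had an unadjusted p of 0.05 or less in edgeR. Of all units, 5.22% passed. The differences from SA to IBA ran from a log2 value of -0.42 ± 0.29 (SE) for Gys2 to 0.56 ± 0.42 for Pck1, and for every gene the libraries of both states overlapped. SA replicate 2 was the lowest SA library for 6 genes, Pck1, G6pc, Fbp1, Pklr, Gys2 and Pygl. For G6pc the mean of the other SA libraries was 4.53-fold above it, for Pygl 2.85-fold and for Pklr 2.84-fold. Without SA replicate 2, the 0 calls from SA to IBA stayed at 0, and 5 of the 8 genes passed across the 5 states instead of 3, with Pklr (adjusted p = 4.48e-05) and Pygl (0.000744) added. The share of 25.5% of all units across the 5 states is that of the full fit and not of this one.

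From IBA to Ent, Gys2 fell by 1.40 ± 0.29 (SE) on the log2 scale (adjusted p = 0.00882, edgeR). It was the only 1 of the 8 genes to pass, where 16.1% of all units did, 7.34% lower and 8.76% higher. By the study's sampling times, IBA livers were taken soon after rewarming. This step thus spans the warm hours between bouts as well as the start of cooling. G6pc (-0.79 ± 0.44), the Fbp2:Fbp1 unit (-0.82 ± 0.28), the Pklr unit (-0.68 ± 0.32) and Pygl (-0.43 ± 0.31) also had every Ent library below every IBA library but had adjusted p from 0.0631 to 0.375. Units with this lack of overlap made up 20.9% of all units. Pck1 had a difference of 0.16 ± 0.42, and its mean in Ent, 1716 ± 325 CPM (SD, n = 3), was the highest of the 5 states. Ppargc1a had 0.43 ± 0.28 with an adjusted p of 0.319 (edgeR), and its 3 Ent libraries were above the 3 IBA libraries, as for 22.5% of all units. With SA replicate 2 left out of the fit, 4 genes passed this step instead of 1: G6pc (adjusted p = 0.0473), the Fbp2:Fbp1 unit (0.0270) and the Pklr unit (0.0248) joined Gys2 with differences that moved by less than 0.01. The shares of all units given here are those of the full fit, so these added calls have no share beside them. The Fbp2:Fbp1 unit also passed without SA replicate 1 (0.0399), without ET replicate 1 (0.0402), in DESeq2 (0.0279) and with the collection season as a term (-1.22, adjusted p = 0.0246).

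Between Ent and ET, 3 of the 8 genes fell, where 28.8% of all units passed, 13.4% lower and 15.3% higher. Pck1 fell by 2.70 ± 0.45 (SE) on the log2 scale, 6.51-fold (adjusted p = 0.00134, edgeR). G6pc fell by 2.30 ± 0.46, 4.92-fold (0.00362), and Gys2 by 1.94 ± 0.30, 3.83-fold (0.00104). For each of them every ET library was below every Ent library, as for 20.7% of all units. The Pklr unit (-0.67 ± 0.32) and Pygl (-0.58 ± 0.31) did not pass, with adjusted p of 0.135 and 0.187, but did so without SA replicate 2, with 0.0171 and 0.0248. The Fbp2:Fbp1 unit had a difference of -0.14 ± 0.28 here, with means of 651 CPM in Ent and 589.7 CPM in ET.

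Placed between the means of IBA and of the torpid states on the log2 CPM scale, the Ent mean of the Fbp2:Fbp1 unit had covered 73.6% of the distance, that of the Pklr unit 54.5%, of Pygl 43.1%, of Gys2 40.5% and of G6pc 24.7%. For Pck1 the figure was -6.64%, since its Ent mean was above that of IBA. The differences among these positions were not tested.

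From ET to LT, within torpor, 0 of the 8 genes passed in edgeR, DESeq2 and limma-voom, 0 had an unadjusted p of 0.05 or less, and 0.269% of all units passed. The log2 differences ran from -0.60 ± 0.48 (SE) for Pck1 to 0.22 ± 0.36 for the Pklr unit, with 3 libraries against 2. For G6pc (-0.54 ± 0.50) and the Pc unit (-0.54 ± 0.30) both LT libraries were below the 3 ET libraries, as for 13.1% of all units.

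On arousal, from LT to IBA, 5 of the 8 genes rose, where 49.8% of all units passed, 25% higher and 24.8% lower. G6pc rose by 3.62 ± 0.58 (SE) on the log2 scale, 12.3-fold (adjusted p = 0.000311, edgeR), Gys2 by 3.45 ± 0.38, 10.9-fold (2.54e-05), and Pck1 by 3.15 ± 0.54, 8.87-fold (0.000487). The Fbp2:Fbp1 unit rose by 1.30 ± 0.33 (0.00556) and the Pklr unit by 1.14 ± 0.37 (0.0217). Pygl had 0.89 ± 0.36 with an adjusted p of 0.0571, which fell to 0.00302 without SA replicate 2 and to 0.0422 without SA replicate 1, and which was 0.0366 in DESeq2 and 0.0472 with upper-quartile normalization. The call of the Pklr unit was lost when IBA replicate 2 (0.0523), IBA replicate 3 (0.0518), LT replicate 1 (0.118) or LT replicate 3 (0.0829) was left out. The Pc unit (0.16 ± 0.30) and Ppargc1a (-0.44 ± 0.31) did not pass.

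The remaining pairs of states are given together. From SA to Ent, Gys2 (-1.82 ± 0.29, log2 difference ± SE) and the Pklr unit (-0.96 ± 0.32) were lower, 2 of the 8 genes where 23.5% of all units passed in edgeR. From SA to ET 5 of 8 were lower (53.2% of all units passed), from SA to LT 5 (49.2%), from IBA to ET 6 (55.2%) and from Ent to LT 3 (27%), and 0 were higher in any of these pairs. Gys2, G6pc and Pck1 were among those that were lower from SA to ET, SA to LT, IBA to ET and Ent to LT. The Pc unit came closest to the opposite direction, from SA to ET, with 0.66 ± 0.27 and an adjusted p of 0.0531.

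**Figure D2:**
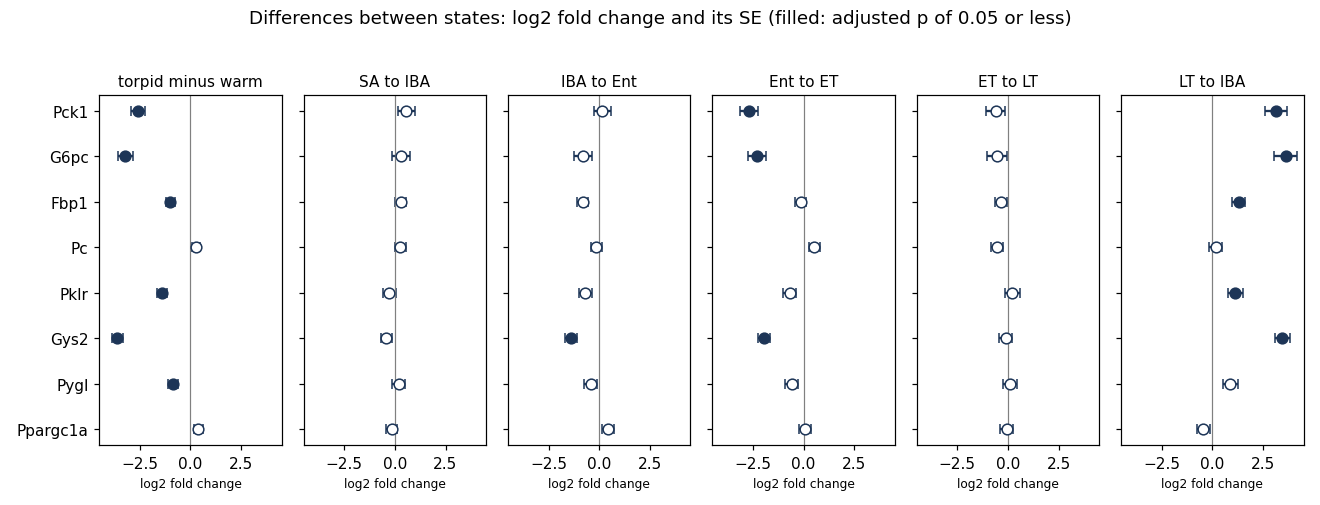
Log2 fold change of the 8 genes, by unit, with its standard error (bars) for torpid minus warm and for each step of the torpor cycle, the later state minus the earlier, filled where the adjusted p was 0.05 or less (edgeR, 14 libraries). Pck1, G6pc and Gys2 moved down from Ent to ET and up from LT to IBA, and no point was filled from SA to IBA or from ET to LT.

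The animals were collected in 3 seasons, and all ET livers came from a season that held no other state, so that state and season cannot be told apart for ET. Within the season of SA replicate 1 and both LT libraries, the LT mean was below that SA library by a log2 difference of -4.16 for Gys2, -4.05 for G6pc, -2.70 for Pck1, -1.52 for the Pklr unit, -1.49 for the Fbp2:Fbp1 unit and -1.15 for Pygl, with 0.09 for the Pc unit and 0.19 for Ppargc1a. This comparison had 1 library on the warm side and no test. With season as a term in the model, which links IBA and LT through SA and Ent, the rise from LT to IBA was 4.03 for G6pc (adjusted p = 0.00151), 3.58 for Gys2 (0.000347) and 3.42 for Pck1 (0.00327) in edgeR, and the same 5 genes passed. From SA to IBA the values within the shared season ran from -0.25 for Gys2 to 0.84 for G6pc. These rest on SA replicate 2: against SA replicate 3 alone, a comparison added after seeing the data, G6pc had 0.20, Pck1 0.12 and Gys2 -0.69, and the signs of Pygl (-0.05) and Ppargc1a (0.31) turned.

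Ratios of counts within a library do not depend on its scaling, and they separated the genes further. The ratio of Pygl to Gys2 counts, glycogen phosphorylase over synthase, was 1.09 to 1.56 in SA and 1.83 to 2.82 in IBA. It was 3.79 to 4.65 in Ent, 7.21 to 15.4 in ET and 11.3 to 13.9 in LT. Each of SA, IBA, Ent and the torpid states together therefore occupied a range of its own. The ratio held for SA replicate 2 as well, where both genes were low. Gys2 alone already formed 3 ranges without overlap, so a ratio over Gys2 also carries that fall. Ppargc1a to Gys2 counts ran from 0.791 to 2.82 in warm, from 5.50 to 5.69 in Ent and from 16.2 to 27.2 in torpid libraries. The ratio of Pck1 to the Pklr unit, the opposed enzymes at the pyruvate step, was 3.48 to 8.24 in warm libraries, 10.7 to 12.9 in Ent and 1.15 to 3.89 in torpid libraries, so that it was highest during entrance and the torpid range reached into that of SA. Pck1 to G6pc showed no such order, with 0.551 to 1.58 in warm, 1.34 to 2.69 in Ent and 0.656 to 2.46 in torpid libraries. G6pc to the Pklr unit was 2.99 to 9.13 in warm, 3.97 to 9.60 in Ent and 0.895 to 2.87 in torpid libraries. These ratios are described without a test, and how many other pairs of units separate in this way was not counted.

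**Figure D3:**
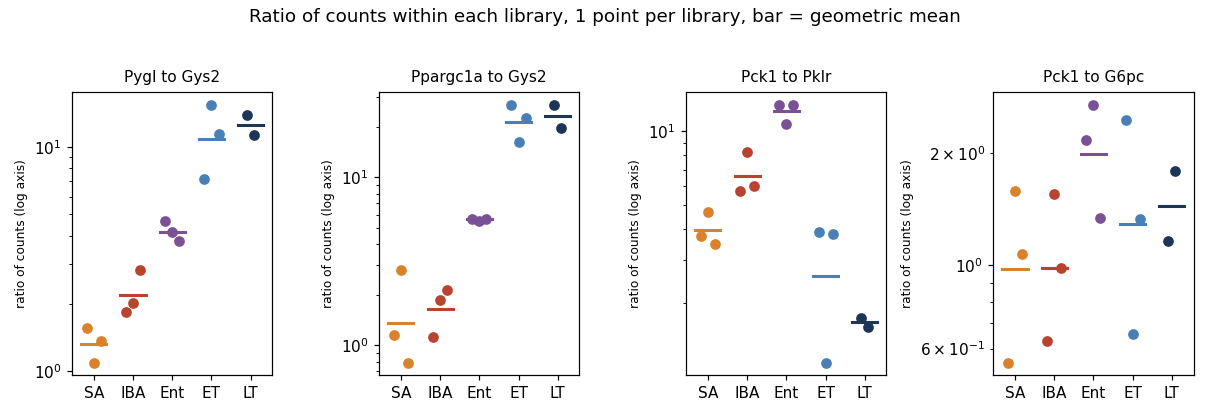
Ratio of the counts of pairs of genes within each of the 14 libraries (log axis, 1 point per library, bar at the geometric mean of the state). Pygl to Gys2 is at most 1.56 in SA and at least 7.21 in torpor, Pck1 to Pklr is highest in Ent at 10.7 to 12.9, and Pck1 to G6pc overlaps between all states.

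Across the 14 libraries, log2 CPM of G6pc and Gys2 had a Pearson r of 0.91 (Spearman 0.90), that of Pck1 and G6pc 0.89 (0.67), and that of the Pklr unit and Gys2 0.87 (0.89). Ppargc1a had r of -0.12 with Pck1 and -0.37 with G6pc. The libraries share 5 states and a scaling, so they are not independent points. Among 4704 other single-gene units, those most like Pck1 in log2 CPM were Lsm4 (r = 0.978), Slc12a3 and the unnamed gene G30015, and those most like G6pc were Xbp1 (0.980), Igfbp1 and Acvr1. Gys2 was most like PIFO_like (0.985), LOC110598647 and G26595, Pygl most like Zbtb44 (0.958), Rtn4 and Wwp1, and Ppargc1a, with the lowest values of the 5, most like H2AFY (0.806), Nfil3 and Rnf8. By Spearman's rho, Slc12a3 and G30015 stayed among the 3 most like Pck1, Igfbp1 of those of G6pc, Rtn4 of those of Pygl and Rnf8 of those of Ppargc1a, whereas 0 of the 3 stayed for Gys2.

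The wider pathway was described with 144 listed genes in 6 groups of function, of which 67 had a unit of their own, the 5 single-gene members included, and 44 lay in merged units. Torpid against warm, 20 of the 67 were higher and 27 lower in edgeR, and 21 passed across the 5 states. Over all units these shares were 30.8%, 33.7% and 25.5%, and the counts of the groups below stand beside the same shares. Leaving out the members, 20 of 62 were higher and 23 lower, with a median log2 difference of -0.07 beside -0.04 over all units. The groups are given below without the members, on the TMM scale. With library sizes set to uniquely mapped reads instead, their counts were 3 higher and 3 lower for gluconeogenic enzymes and transport, 4 and 5 for glycolysis and glucose entry, 8 and 0 for the pyruvate dehydrogenase group, 3 and 4 for glycogen synthesis, 2 and 0 for glycogen breakdown and 8 and 4 for regulators. Under that scaling the background also moved: of all 6324 units, 2601 were higher and 1499 lower, in place of 1948 and 2132.

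Of the 8 other single-gene units for gluconeogenic enzymes and transport, 2 were higher and 3 lower in torpor. The malate dehydrogenases Mdh2 (1.26 ± 0.15, log2 difference ± SE) and Mdh1 (1.08 ± 0.13) rose, whereas the aspartate aminotransferase Got1 (-2.01 ± 0.38) and the glycerol channel Aqp9 (-1.46 ± 0.25) fell. From SA to IBA, Gpd2, a glycerol-3-phosphate dehydrogenase, was higher in IBA (0.97 ± 0.21, adjusted p = 0.0169), and the alanine aminotransferase Gpt2 (-1.50 ± 0.34, 0.0228) and Mdh1 (-0.88 ± 0.17, 0.0116) were lower (edgeR). Over all 6 groups, 1 of the 67 single-gene units was higher and 4 were lower at this step, where 5.22% of all units passed. Of 12 units for glycolysis and glucose entry, 3 were higher and 7 lower in torpor. Pgk1 (1.55 ± 0.12) and Gapdh (1.36 ± 0.17), of the shared part of glycolysis and gluconeogenesis, rose, and the hexokinase family gene Hkdc1 (-2.59 ± 0.52) and Tkfc (-1.98 ± 0.24), a kinase of fructose metabolism, fell. In the pyruvate dehydrogenase group 7 of 10 were higher and 1 was lower, with a median of 0.75. Pdhb (1.47 ± 0.15), a subunit of the complex, and its phosphatase Pdp2 (1.14 ± 0.17) rose, and Pdk4 (-1.30 ± 0.49), a kinase that inactivates the complex, fell. The other inactivating kinases with a unit of their own, Pdk1 (1.14 ± 0.14) and Pdk2 (0.70 ± 0.20), rose; they were named after their values were seen. Pdk4 was not called with library sizes set to uniquely mapped reads (-1.06, adjusted p = 0.0718).

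Of the 9 other single-gene units for glycogen synthesis, the group of Gys2, 1 was higher, 4 were lower and 4 were not called. From Ent to ET 4 were lower and 0 higher, beside 13.4% and 15.3% of all units. Ppp1r3c (-2.57 ± 0.29), a subunit that targets protein phosphatase 1 to glycogen, and Gys1 (-2.12 ± 0.16), the synthase of muscle and other tissues, fell, and the phosphoglucomutase Pgm1 (0.32 ± 0.13, adjusted p = 0.0489 in edgeR) rose. Ppp1r3b, the hepatic targeting subunit, was already lower in IBA than in SA by 1.58 ± 0.22 on the log2 scale (adjusted p = 0.00294). Of 4 other units for glycogen breakdown, 1 was higher and 1 lower: the phosphorylase kinase subunit Phkg2 (1.31 ± 0.17) rose and Phkb (-0.55 ± 0.17) fell, but Phkb was not called with library sizes set to uniquely mapped reads (-0.32, adjusted p = 0.128). Of 19 other regulators, 6 were higher and 7 lower. The clock repressor Nr1d1 (1.91 ± 0.41) and the insulin-regulated forkhead factor Foxo1 (1.54 ± 0.24) rose, and the liver transcription factors Cebpa (-1.25 ± 0.28) and Hnf4a (-1.10 ± 0.13), the latter also among the hepatocyte markers, fell. Foxo3 was lower in IBA than in SA (-0.99 ± 0.22, adjusted p = 0.0203, edgeR). The median of the regulators was -0.09, beside -0.04 over all units. With library sizes set to uniquely mapped reads it was 0.13, beside 0.18 over all units.

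**Figure D4:**
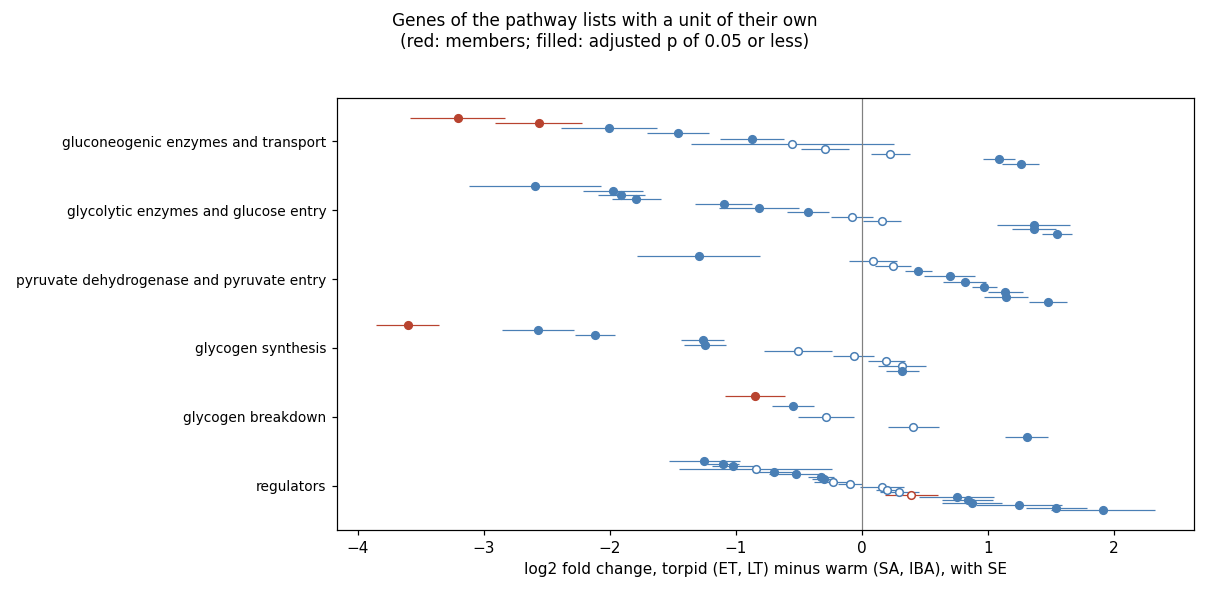
Log2 fold change with its standard error between torpid (ET, LT) and warm (SA, IBA) livers for the 67 listed genes with a unit of their own, by group of function, red for the 5 members with such a unit and filled at an adjusted p of 0.05 or less (edgeR). G6pc (-3.21) and then Pck1 (-2.57) are the lowest of the gluconeogenic group and Gys2 (-3.60) of glycogen synthesis, and 7 of the 10 genes of the pyruvate dehydrogenase group lie above 0 and filled.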

How the data were processed

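The authors trimmed the reads with cutadapt (minimum length 32 nt), aligned them with BWA to HiC_Itri_2, extended gene annotations with fstitch calls, merged overlapping genes, removed the first 500 nt and counted uniquely aligned reads with featureCounts. The deposited values are raw counts per unit and library, not normalized. Versions, and whether counting used strand, are not given in the sources used here.

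Here 6324 units in 14 libraries entered a single fit in edgeR 4.0.16 under R 4.3.3, with TMM factors and 1 quasi-likelihood coefficient per state. The Benjamini-Hochberg adjustment covered every unit, at 0.001 for the 5 states and at 0.05 for contrasts. SE is the log2 difference divided by the root of the F statistic. Log2 CPM used a prior count of 2. Each animal is 1 library, so n counts animals. The steps were tested on simulated data, and figures were drawn with matplotlib 3.10.9.

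The members and lists were chosen with earlier results of these data known. Named from each list, beside the members, are the 2 largest rises and 2 largest falls that passed, torpid against warm and from SA to IBA, and for each single-gene member the 3 units with the highest Pearson r among those with a mean of at least 10 CPM. Of the 144 listed symbols, 142 matched RefSeq gene names. The fit was repeated in DESeq2 1.42.0 and in limma 3.58.1 (voom), with adjusted deviances, other scalings, a minimum of 10 counts, single-gene units only, the other threshold, a replicate block, collection season, and each library left out. Uniquely mapped reads and seasons came from the study's library list.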

Additional observations from a re-analysis of the deposited data

How the results depend on the processing

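Across the 5 states, DESeq2 called 5 of the 8 genes and 35 listed pathway genes, and a threshold of 0.05 gave 5 and 45, in place of 3 and 21. Torpid against warm, a threshold of 0.001 left 26 pathway genes of 47. From IBA to Ent, DESeq2 and the season term each gave 2 genes and a threshold of 0.001 gave 0, in place of 1. From Ent to ET that threshold gave 0 in place of 3, and from LT to IBA it gave 3 in place of 5. With single-gene units only, LT to IBA also gave 3, since the merged Fbp2:Fbp1 and Pklr units are then absent.

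With 1 library left out, the calls ranged from 1 to 5 genes across the 5 states (17 to 23 pathway genes), from 6 to 7 torpid against warm (40 to 47 pathway genes), from 1 to 4 for IBA against Ent, from 3 to 5 for Ent against ET and from 4 to 6 for LT against IBA. They stayed at 0 from SA to IBA and from ET to LT. The shares of all units in these fits are not set beside the calls. Of 784 values of single genes without 1 library, 764 kept their side of the threshold, 8 lost it and 12 gained it. Of 563 under other alternatives, 544 kept it, 8 lost it and 11 gained it. No called value changed sign, and 15 and 5 uncalled values did.

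Replicate numbers did not pair the libraries: over 26 pairs with the same number, the correlation of deviations from the state means ran from -0.26 to 0.23, with 6 above 0.1, and 3 of 14 libraries correlated best with their own number. With the replicate number as a block, calls were 3 across the 5 states, 6 torpid against warm, 1 for IBA against Ent, 3 for Ent against ET and 6 for LT against IBA, where Pygl was added (1.0, adjusted p = 0.0380, edgeR), with 0 elsewhere. Of all 6324 units, the block called 1187 across the 5 states, 3934 torpid against warm, 843 for IBA against Ent, 1638 for Ent against ET and 2955 for LT against IBA. Groups of 2 or 3 libraries limit every comparison, and LT most.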
